A study of Mus musculus with 5 samples.

Results

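The genes described here are 9 channels of the transient receptor potential (TRP) family that carry, or are thought to carry, the responses of sensory neurons to heat, cold and chemical irritants: Trpv1, Trpv2, Trpa1, Trpm2, Trpm3, Trpm8, Trpc1, Trpc5 and Trpc6. They were picked by gene symbol, and each matched 1 row of a single-cell count matrix, so they are 9 of its 17267 mouse genes. The cells came from dorsal root ganglia (DRG) at the lumbar level, which hold the cell bodies of the sensory neurons of the hindlimb and trunk. The tissue was taken from 5 wild-type, untreated C57BL/6 mice of both sexes aged 18 weeks, without any transgene or reporter, and there was 1 condition only. Each mouse gave 1 droplet library prepared from the 3′ ends of transcripts, so the comparisons are between cell types and the spread is between the 5 libraries. Which library came from which sex was not assigned.

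TRP channels are cation channels that open to temperature, to plant compounds and irritants, or downstream of phospholipase C, and so depolarise the endings of sensory neurons. Trpv1 is the capsaicin receptor and opens to noxious heat. Trpa1 opens to mustard oil and other reactive irritants, and Trpm3 opens to noxious heat and to the steroid pregnenolone sulfate. Mice that lack Trpv1, Trpa1 and Trpm3 together lose acute withdrawal from heat. Trpm8 is the menthol and cool receptor, and Trpc5 has been linked to the sensing of cold. Trpm2 is gated by ADP-ribose, responds to oxidative stress and contributes to the sensing of warmth. Trpv2 is a close relative of Trpv1 whose part in heat sensing in vivo is not settled, while Trpc1 and Trpc6 are subunits of channels coupled to phospholipase C, and Trpc6 is opened by diacylglycerol.

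The deposited matrix held 3352 cells and 224553219 unique molecular identifiers (UMIs, each a counted transcript molecule), and the cells were already assigned by the authors to 14 types, 12 of them neuronal. Of the neuronal types 3 are non-peptidergic (NP_Mrgprd, NP_Mrgpra3, NP_Nts), 5 are peptidergic (PEP1_Dcn, PEP1_S100a11.Tagln2, PEP1_Slc7a3.Sstr2, PEP2_Htr3a.Sema5a, PEP3_Trpm8), 1 is marked by tyrosine hydroxylase (Th), and 3 carry neurofilament (NF_Calb1, which the file spells NF_Ca1b1, NF_Pvalb and NF2_Ntrk2.Necab2). The remaining types are satellite glia and endothelial cells. Libraries held between 164 and 1370 cells, the fewest cells of any type in a library were 3, and the numbers 1 to 5 given to libraries below are only names. Of the cell barcodes, 7 occurred in 2 libraries (14 cells), and 188 cells carried more than 10% mitochondrial UMIs. The sum of the 5 neuronal markers Tubb3, Rbfox3, Snap25, Uchl1 and Prph averaged from 9830 to 13017 UMIs per 1000000 in the 12 neuronal types, and 544 and 611 in satellite glia and endothelial cells, so the labels neuronal and non-neuronal hold. The authors drew the types from these same counts, so a test of a type against other cells says how well libraries repeat a separation and is not independent evidence for the type.

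On the reference assembly GRCm38.p6 (RefSeq genes), Trpv1 lies on chr11:73234149-73261322 on the + strand and Trpv2 on the same chromosome at chr11:62574486-62600305 (+). Trpa1 lies on chr1:14872644-14918862 on the − strand, and Trpm8 on the same chromosome at chr1:88306735-88388853 (+). The other genes are Trpm2 on chr10:77907722-77969909 (−), Trpm3 on chr19:22137797-22995410 (+), Trpc5 on chrX:144377327-144688180 (−), and Trpc1 and Trpc6 on one chromosome at chr9:95705072-95750386 (−) and chr9:8543867-8680752 (+). Over all cells Trpv1 had 15682 UMIs, Trpv2 11820, Trpa1 6811, Trpm2 4025, Trpc6 2773 and Trpm3 1237. The 3 sparsest genes were Trpm8 with 247 UMIs, Trpc5 with 177 and Trpc1 with 150. These totals depend on how each transcript's 3′ end was captured and are not used to rank one gene against another. The highest UMI count in any single cell was 170 for Trpa1, 128 for Trpv1 and 2 for Trpc1.

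A level below is the number of UMIs of a gene per 1000000 UMIs of all genes (CPM) in the summed cells of 1 type in 1 library, given as mean ± SD over the 5 libraries. Each gene had its own order of types, and no type held the highest mean of more than 2 of the 9 genes. PEP1_Dcn was highest for Trpv1 and Trpa1, PEP3_Trpm8 for Trpv2 and Trpm8, and NP_Nts for Trpm2 and Trpc1. Of these, Trpm8 gave PEP3_Trpm8 its name, and Trpc1 was near the limit of detection (1.22 CPM in NP_Nts, 1.14 in NP_Mrgpra3). NP_Mrgprd was highest for Trpc6, Th for Trpc5 and satellite glia for Trpm3. Counting the genes with a mean of at least 10 CPM, NP_Nts, PEP1_Dcn and PEP1_Slc7a3.Sstr2 each held 5, NP_Mrgpra3, PEP1_S100a11.Tagln2 and PEP3_Trpm8 each held 4, and NP_Mrgprd and PEP2_Htr3a.Sema5a each held 3. Th, NF_Calb1 and NF_Pvalb held 2 each, NF2_Ntrk2.Necab2 held 1 (Trpv2), satellite glia held 1 (Trpm3) and endothelial cells held 0. In sums over cells, fewer cells with a transcript and fewer transcripts per cell cannot be told apart, so shares of cells are given with the levels.

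**Figure D1:**
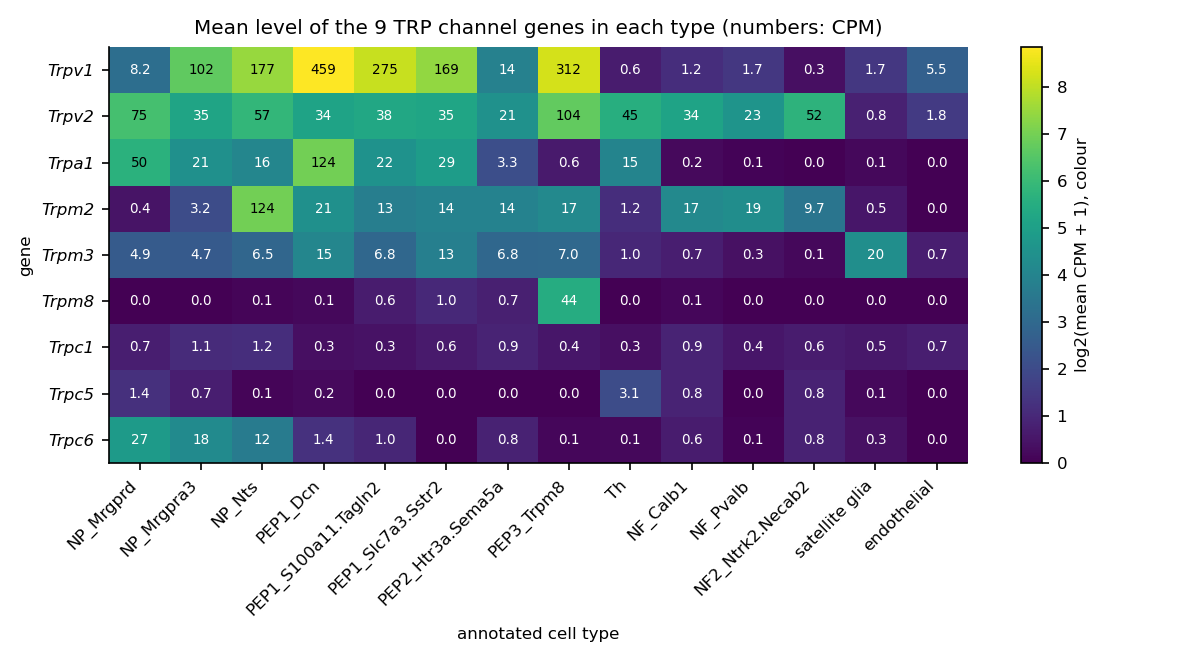
Mean level of the 9 TRP genes (rows) in the 14 annotated types (columns), coloured by log2(mean CPM + 1), with the mean CPM over 5 libraries written in each field. Trpv1 was spread over NP_Mrgpra3, NP_Nts, the PEP1 types and PEP3_Trpm8 (102 to 459 CPM), Trpm2 stood at 124 CPM in NP_Nts, and the neurofilament columns were near 0 for Trpv1, Trpa1, Trpm3 and Trpc6.

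Each type was compared with all other cells of the same libraries by edgeR's quasi-likelihood test on the UMI sums, and a gene was called when its Benjamini-Hochberg adjusted p over all genes tested was under 0.01 and its change at least 2-fold. The other cells were summed without weights, so NP_Mrgprd, with 900 of 3352 cells and the highest median depth, weighed most in them for every other type. Of the 126 combinations of a gene and a type, 90 passed the filter on low counts, and the 36 others were not tested: Trpc1 was tested in 1 type, Trpc5 in 2 and Trpm8 in 3. Among the tested combinations 17 were called higher (18.9%) and 40 lower (44.4%), while over all genes and types 9.32% of tests were called higher and 16.4% lower. A sparse gene passes the filter mainly where it is high, so the first share describes these genes and supports nothing further. In NP_Mrgprd 4 of 9 genes were higher and 3 lower, where 5.82% and 21.7% of all genes were. In PEP1_Dcn 3 of 6 were higher and 1 was lower, against 6.87% and 8.28% of all genes, and the median log2 difference was 0.90 for the 6 genes and -0.02 for all genes. In PEP3_Trpm8 3 of 7 were higher and 2 lower, against 7.28% and 11.1%, and the higher genes include Trpm8, by which the type was named. NP_Nts and PEP1_Slc7a3.Sstr2 had 2 higher genes each (of 6 and 7, where 6.13% and 6.93% of all genes were higher). PEP1_S100a11.Tagln2 had 1 higher and 1 lower of 6 (3.98% and 8.36%), and Th 1 higher and 4 lower of 7 (7.06% and 13.9%). Satellite glia had 1 higher and 5 lower of 6 (21.4% and 32.5%). No gene of the set was higher in NP_Mrgpra3 (3.12% of all genes), PEP2_Htr3a.Sema5a (8.74%), NF_Calb1 (14.8%), NF_Pvalb (13.4%), NF2_Ntrk2.Necab2 (7.79%) or endothelial cells (17.4%). In NF_Pvalb 5 of 6 tested genes were lower (17.5% of all genes), in NF_Calb1 4 of 6 (15.8%) in NF2_Ntrk2.Necab2 4 of 6 (13.5%), in endothelial cells 5 of 6 (34.2%) and in PEP2_Htr3a.Sema5a 4 of 6 (10.6%). NP_Mrgpra3 and PEP1_Slc7a3.Sstr2 had 1 lower gene each (11.6% and 12.1%), and NP_Nts had 0 (18.5%).

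**Figure D2:**
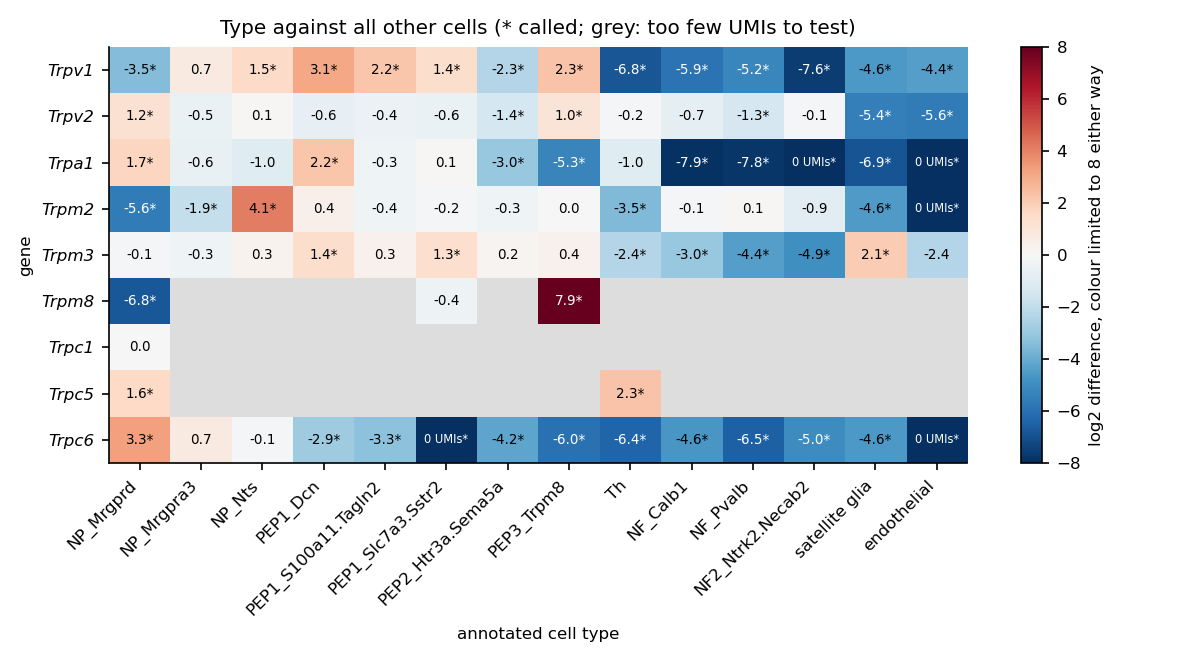
Log2 difference of each gene (rows) between a type (columns) and all other cells, from the edgeR fits on 5 libraries, with the value written in each field and an asterisk where it was called (adjusted p under 0.01, at least 2-fold). Grey fields were not tested, fields of tested combinations without a UMI are marked as such, and the largest positive values besides Trpm8 in PEP3_Trpm8 were Trpm2 in NP_Nts (4.11) and Trpc6 in NP_Mrgprd (3.26).

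Trpv1 was the gene with the widest high range: it was called higher in 5 types and lower in 8. In PEP1_Dcn its level was 537, 481, 471, 446 and 360.1 CPM in libraries 1 to 5 (459 ± 64.7), a log2 difference of 3.08 ± 0.15 (SE) from all other cells (adjusted p = 2.8e-09, edgeR). In PEP1_S100a11.Tagln2 it was 219, 288, 358, 266 and 247 CPM (275 ± 52.4), 2.25 ± 0.16 above other cells on the log2 scale (adjusted p = 1.3e-07, edgeR). The 5 libraries of PEP1_Dcn were all above those of PEP1_S100a11.Tagln2. NP_Nts stood at 177 ± 27.9 CPM (149 to 217) and PEP1_Slc7a3.Sstr2 at 169 ± 26.8 (136 to 206), log2 differences of 1.51 and 1.43. These ranges overlapped for most of their length. NP_Mrgpra3, at 102 ± 19.5 CPM, had a log2 difference of 0.75 (adjusted p = 0.0013, edgeR), under the 2-fold limit.

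Between the 14 types, neighbours in the order of a gene's levels were compared in 1 fit of all 70 sums, with an adjusted p under 0.01 as the limit. For the 7 genes that passed the filter in that fit, 13 of 91 neighbours differed, where 44.9% of all tests over genes and pairs of types passed. The 13 include the step of Trpm8 below PEP3_Trpm8, the type named by it. Neighbours are by construction the closest types, and 7 of the 91 had no UMI in either type, so the shares are not alike in kind. For Trpv1 only the step from NP_Mrgpra3 down to PEP2_Htr3a.Sema5a passed (log2 difference 2.88 ± 0.35, adjusted p = 5.0e-11, edgeR). PEP1_Dcn was not separated from PEP3_Trpm8, the next type (0.56 ± 0.29, adjusted p = 0.12), but without library 2 it was (1.02, adjusted p = 0.0022), and PEP1_S100a11.Tagln2 was not separated from NP_Nts (0.63, adjusted p = 0.083) nor PEP1_Slc7a3.Sstr2 from NP_Mrgpra3 (0.62, adjusted p = 0.094). Types further apart did differ, and PEP1_Dcn was above PEP1_Slc7a3.Sstr2 by 1.42 (adjusted p = 0.00011). In level, the 6 types from PEP1_Dcn to NP_Mrgpra3 therefore formed a graded series with 1 clear lower edge. PEP3_Trpm8, at 312 ± 197 CPM, was uneven between its cells. A Trpv1 UMI was found in 84 of its 168 cells, and the top 10% of its cells held 63.5% of its Trpv1 UMIs.

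Below that edge Trpv1 was low but not evenly so. PEP2_Htr3a.Sema5a stood at 0, 34.3, 6.14, 13.5 and 14.1 CPM, a log2 difference of -2.33 ± 0.40 (adjusted p = 0.0002, edgeR), with library 2 well above the rest. NP_Mrgprd stood at 8.20 ± 4.41 CPM (3.74 to 14.2), a difference of -3.48, and the Th and neurofilament types at 1.70 CPM or less. A UMI of Trpv1 was found in 304 of 900 NP_Mrgprd cells (33.8%, at a median depth of 105150) and in 5 of 249 glial cells (2.01%, at a median of 17729), so depth differed several-fold. When each cell was thinned to 10000 UMIs, the expected share with a Trpv1 UMI was 6.94% in NP_Mrgprd and 0.863% in satellite glia. At that depth it was 93.5% in PEP1_Dcn, 91.3% in PEP1_S100a11.Tagln2, 80.9% in NP_Nts, 79.8% in PEP1_Slc7a3.Sstr2, 58.4% in NP_Mrgpra3 and 41.1% in PEP3_Trpm8. PEP3_Trpm8 and PEP1_S100a11.Tagln2 were not separated in Trpv1 level (37.1 ± 209 CPM higher in PEP3_Trpm8, higher in 3 of 5 libraries, log2 difference 0.15, adjusted p = 0.72, edgeR), and the direction of the mean rested on library 2.

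**Figure D3:**
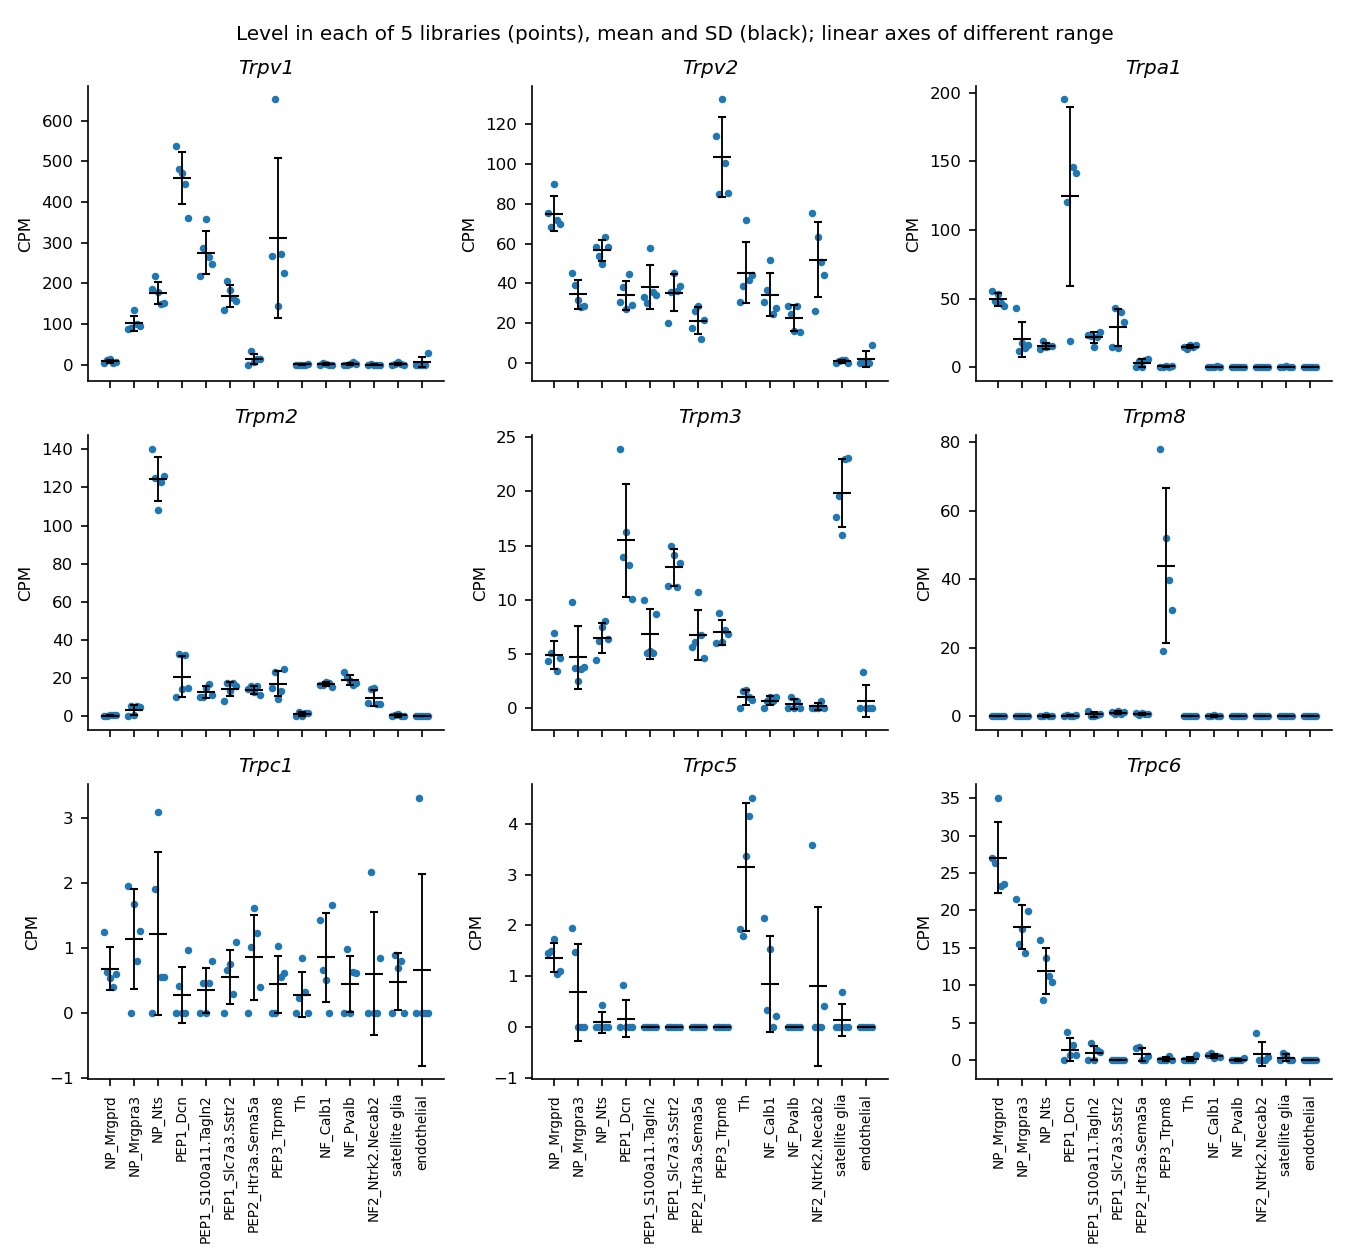
Level in CPM (vertical, linear axes of different range, 1 panel per gene) in each of the 5 libraries (points), with the mean and SD (black), for the 14 types on the horizontal axis. Trpv1 in PEP3_Trpm8 ran from 145 to 653 CPM and Trpa1 in PEP1_Dcn from 18.9 to 195, while Trpm2 in NP_Nts kept to 108 to 140.3.

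Trpa1, the irritant receptor, was called higher in PEP1_Dcn and NP_Mrgprd, which carried it in different ways. In NP_Mrgprd its level was 55.6, 48.2, 53.4, 46.5 and 44.6 CPM (49.6 ± 4.68), a log2 difference of 1.74 ± 0.23 (adjusted p = 1.2e-05, edgeR). A UMI was present in 857 of 900 NP_Mrgprd cells (95.2%), against 1 of 249 satellite glia. In PEP1_Dcn it was 195, 120.3, 18.9, 146 and 142 CPM (124 ± 65.0), a difference of 2.19 ± 0.36 (adjusted p = 0.00021, edgeR), and a UMI was present in 69 of 163 cells (42.3%, median 49516 UMIs per cell). PEP1_Dcn was above NP_Mrgprd in 4 of 5 libraries and below it in library 3, and the pair differed by 1.08 ± 0.25 (adjusted p = 0.00015, edgeR), a call lost without library 5 (adjusted p = 0.011).

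The Trpa1 molecules of PEP1_Dcn were concentrated in few cells. The 17 of its cells with the most Trpa1 UMIs, 10% of the type, held 70.8% of its Trpa1 UMIs, and 28 cells had 10 or more. In library 1 a single cell of 4 held 56 of the 57 UMIs, and in library 2 a single cell held 170 of 293 (58.0%). Without the highest cell of each library, an alternative added after the values were seen, the level was 5.38, 53.0, 13.9, 123 and 119 CPM (62.9 ± 56.1), so that library 1 fell below every NP_Mrgprd library, as library 3 already was, and libraries 4 and 5 stayed above. The top 10% of cells held 77.6% of Trpa1 UMIs in PEP1_Slc7a3.Sstr2 and 53.8% in PEP1_S100a11.Tagln2, but 23.2% in NP_Mrgprd. At 10000 UMIs per cell the order of PEP1_Dcn and NP_Mrgprd turned around, with expected shares of 26.9% and 39.2%. In the 3 libraries of PEP1_Dcn with enough cells of each kind, a Trpm2 UMI was found in 79.9% of cells with Trpa1 and 55.0% of cells without, a difference of 24.9 ± 7.88 percentage points. The cells with Trpa1 were also deeper (medians of 52127.5 to 87746.5 against 33343 to 54463 UMIs), and the part of depth in this difference was not tested.

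Other types carried Trpa1 at lower levels. PEP1_Slc7a3.Sstr2 stood at 14.7, 42.9, 14.2, 40.2 and 32.9 CPM (29.0 ± 13.8), lower than NP_Mrgprd by 0.82 ± 0.26 (adjusted p = 0.0052, edgeR). PEP1_S100a11.Tagln2 (21.7 ± 4.16), NP_Mrgpra3 (20.5 ± 12.8), NP_Nts (15.6 ± 2.15) and Th (15 ± 1.14) followed, and these neighbours were not separated. Th, the type of C-fibre low-threshold mechanoreceptors, was the most even of them, at 13.6 to 16.4 CPM. It was above PEP2_Htr3a.Sema5a (3.33 ± 2.92 CPM) by 1.94 ± 0.38 (adjusted p = 1.3e-05, edgeR). PEP3_Trpm8 had 4 Trpa1 UMIs in all (0.562 CPM), a log2 difference of -5.30 from other cells. No UMI was found in 58 NF2_Ntrk2.Necab2 cells, at least 59.4-fold lower than in other cells, where the bound sets 3 UMIs over the 5 libraries against 31.1 CPM. None was found in 56 endothelial cells, at least 9.55-fold lower by the same floor.

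Trpm3 was highest in a non-neuronal type. In satellite glia, which wrap the neuronal cell bodies, its level was 17.7, 19.6, 15.9, 23.0 and 23.1 CPM (19.8 ± 3.18), a log2 difference of 2.05 ± 0.18 from all other cells (adjusted p = 1.8e-08, edgeR). In PEP1_Dcn it was 24.0, 14, 16.3, 13.2 and 10.0 CPM (15.5 ± 5.24), 1.40 ± 0.19 above other cells (adjusted p = 4.7e-05, edgeR). In PEP1_Slc7a3.Sstr2 it was 11.3, 15, 14.2, 11.2 and 13.4 CPM (13 ± 1.70), 1.35 ± 0.15 above (adjusted p = 2.5e-06, edgeR). Glia were above PEP1_Dcn by 0.84 ± 0.24 (adjusted p = 0.0016, edgeR) although the libraries overlapped, and that call was lost in DESeq2 (adjusted p = 0.016) and without library 2, 4 or 5 (adjusted p = 0.011, 0.026 and 0.015).

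A UMI of Trpm3 was found in 70 of 249 satellite glia (28.1%), and at 10000 UMIs per cell the expected share was 17.4% ± 3.67 in glia, 16.5% in PEP1_Dcn and 13% in PEP1_Slc7a3.Sstr2. The 5 neuronal markers summed to 544 ± 217 CPM in glia (275 to 788), which is over 10-fold below every neuronal type. Satellite glia markers, Fabp7 and Apoe among them, summed to 90053 CPM in glia and to at most 566 in a neuronal type. The part of neuronal RNA in the Trpm3 counts of glia was not tested. Among the PEP1 types PEP1_S100a11.Tagln2 was below the others, by 1.01 against PEP1_Dcn (adjusted p = 0.0016, edgeR) and by 0.95 against PEP1_Slc7a3.Sstr2 (adjusted p = 0.0021, edgeR). PEP3_Trpm8, PEP1_S100a11.Tagln2, PEP2_Htr3a.Sema5a and NP_Nts lay close together at 6.98, 6.82, 6.75 and 6.48 CPM, and NP_Mrgprd and NP_Mrgpra3 at 4.88 and 4.67. Th (0.979 CPM, log2 difference -2.36) and the neurofilament types (0.662 CPM or less, down to -4.94) were called lower. No cell of any type had more than 6 Trpm3 UMIs, so the gene was seen by 1 or few molecules per cell.

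The channels whose joint loss abolishes heat withdrawal were then counted in the same cells. A UMI of each of Trpv1, Trpa1 and Trpm3 was found in 26 of 104 NP_Mrgpra3 cells (25%), 36 of 163 PEP1_Dcn cells (22.1%), 71 of 400 NP_Nts cells (17.8%) and 26 of 181 PEP1_S100a11.Tagln2 cells (14.4%). The count was 110 of 900 in NP_Mrgprd (12.2%), 37 of 342 in PEP1_Slc7a3.Sstr2 (10.8%) and 1 of 206 in PEP2_Htr3a.Sema5a (0.485%). No cell of PEP3_Trpm8, Th, the neurofilament types, satellite glia or endothelial cells held all of them. At least 1 of the channels was found in 96.9% to 99.8% of cells of the 6 NP and PEP1 types, in 56.3% of PEP2_Htr3a.Sema5a, 60.1% of PEP3_Trpm8 and 56.9% of Th, and in 5.17% to 10.6% of cells of the neurofilament types. The share was 29.3% in satellite glia, almost all by Trpm3, and 5.36% in endothelial cells. These counts were not thinned, and the median UMIs per cell ran from 30800.5 in PEP3_Trpm8 to 105150 in NP_Mrgprd among the NP and PEP types.

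Trpm8 gave its name to PEP3_Trpm8, so its level there, 78.1, 19.1, 52.0, 39.8 and 30.9 CPM, only describes the type. Its calls there are part of the counts given above and are not evidence for the type. The type held 85.8% of all 247 Trpm8 UMIs. Outside it, the counts were low. PEP1_Slc7a3.Sstr2 had 13 UMIs, with at least 1 in each of the 5 libraries (1.13, 0.650, 1.49, 0.574 and 1.30 CPM) and so had PEP2_Htr3a.Sema5a (0.700 ± 0.187). PEP1_S100a11.Tagln2 stood at 0.582 CPM with libraries 2 and 3 at 0, PEP1_Dcn and NF_Calb1 had 2 UMIs each, and NP_Nts and NP_Mrgprd 1 each. Cells with a UMI were 12 of 342 in PEP1_Slc7a3.Sstr2 (3.51%, median 38283.5 UMIs per cell) and 0 of 249 in satellite glia (median 17729), and against all other cells the former was not called (-0.42, adjusted p = 0.64, edgeR). Those other cells included PEP3_Trpm8 with its 85.8% of the UMIs. The test therefore cannot show whether PEP1_Slc7a3.Sstr2 stood above the remaining types. No UMI was found in NP_Mrgpra3, Th, NF_Pvalb, NF2_Ntrk2.Necab2, satellite glia or endothelial cells, and 0 of 232 Th cells allows a share with a UMI of up to 1.29%. These values are levels of 1 to 13 molecules per type, and no neighbours among these types differed in the fit of all types. Over all pairs of types 24 of 91 passed for Trpm8, where 44.9% of all tests did. Pairs with PEP3_Trpm8 cannot make up all of these, so some of the other types differed from each other. Those pairs rest on few molecules and are not listed here.

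Within PEP3_Trpm8, Trpm8 and Trpv1 were found mostly in different cells. Of its 168 cells, 68 had a UMI of Trpm8 only, 62 of Trpv1 only, 22 of both and 16 of neither, with median depths of 32885, 27117, 31918.5 and 27443.5 UMIs. Both of the single-gene groups occurred in all 5 libraries, with 6, 6, 12, 24 and 20 cells for Trpm8 only and 2, 10, 7, 16 and 27 cells for Trpv1 only. A Trpm8 UMI was present in 68 of 84 cells without Trpv1 (81.0%, Clopper-Pearson 95% interval 70.9 to 88.7), in 14 of 37 cells with 1 to 4 Trpv1 UMIs (37.8%, 22.5 to 55.2) and in 8 of 47 cells with at least 5 (17.0%, 7.65 to 30.8). The intervals cover counting error over cells only. Those 47 cells held 1450 of the 1533 Trpv1 UMIs of the type (94.6%), and none of them had more than 1 Trpm8 UMI.

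Over the 3 libraries with at least 10 cells of each kind, the share with a Trpm8 UMI was 33.0% ± 20.9 in cells with Trpv1 and 82.9% ± 15.1 in cells without, a difference of -49.9 ± 6.03 percentage points that had the same sign in each. The share with a Trpm2 UMI moved the other way, at 41.8% in cells with Trpv1 and 22.5% without, a difference of 19.3 ± 3.65 points. Library 2, which had the highest Trpv1 level of the type (653 CPM) and the lowest Trpm8 level (19.1 CPM), also had the largest portion of Trpv1-only cells, 55.6%, against 22.2% to 45% in the other libraries.

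**Figure D4:**
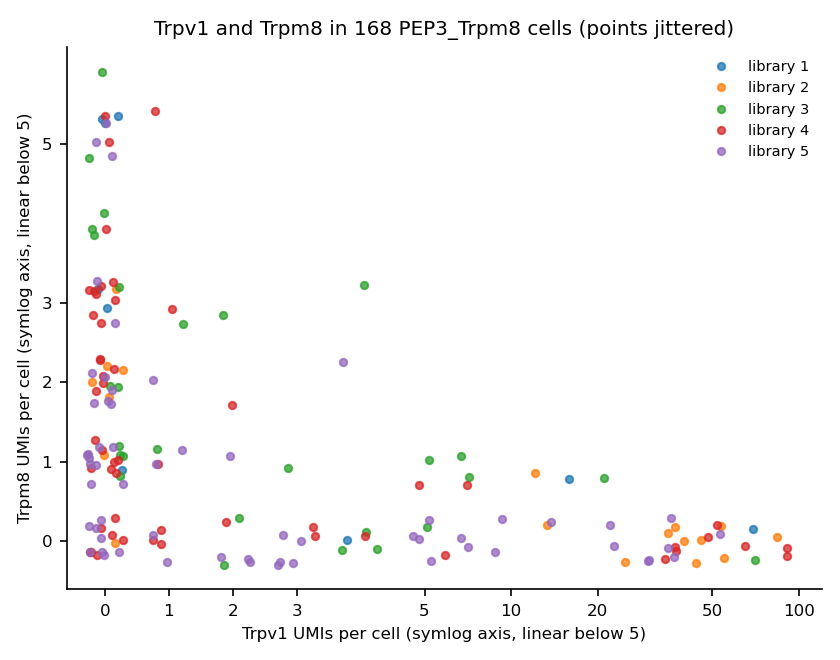
UMIs of Trpv1 (horizontal) and Trpm8 (vertical) in each of the 168 PEP3_Trpm8 cells, as jittered points in 1 colour per library, on axes that are linear at low counts and logarithmic above. Most cells lie along one axis or the other: the 47 cells with at least 5 Trpv1 UMIs have at most 1 Trpm8 UMI, and the 68 cells with Trpm8 only reach 8 Trpm8 UMIs.

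The same cells were summed per library as Trpv1-only and Trpm8-only cells. This split uses the readout of both genes, so the levels of other genes are given without a test. Trpv2 was alike in the groups, at 103 and 104 CPM. Trpm2 stood at 25 ± 18.9 CPM in Trpv1-only and 6.80 ± 4.73 in Trpm8-only cells. Gfra3, the artemin co-receptor, stood at 438 ± 217 and 115 ± 38.6 CPM, Prkce, a protein kinase C that sensitises Trpv1, at 142 ± 71.6 and 36.9 ± 11.2, and Plcb3, a phospholipase C, at 15.8 and 2.59. Oprm1, the mu opioid receptor, stood at 1.27 and 6.22. Of the genes whose pattern over the types was most like that of Trpm8 (given at the end), Penk, the enkephalin precursor, stood at 0, 1592, 0, 142 and 286 CPM in the Trpv1-only cells of libraries 1 to 5 (404 ± 675) and at 604 ± 355 in Trpm8-only cells. Its library 2 held most of the first mean and went the other way, since the Trpm8-only cells of that library stood at 276. Foxp2, a transcription factor, stood at 70.6 ± 21.4 and 114 ± 18.1, but Abi3bp was higher in Trpv1-only cells, at 231 ± 39.1 against 76.5 ± 26.7. Of the genes most like Trpv1 besides Gfra3, Msantd1 was at 41.3 and 40.9 CPM and Smpd5 at 6.73 and 15.6. The same satellite glia markers summed to 77.1 CPM (0 to 195) in Trpv1-only and 369 CPM (37.9 to 1542) in Trpm8-only cells, the 4 Schwann cell markers to 138 (53.7 to 237) and 73.1 (29.0 to 157), and their part in these differences was not tested.

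Trpc5 was sparse, and 24.9% of its 177 UMIs lay in Th and 63.8% in NP_Mrgprd. It passed the filter on low counts only in these types, where it was highest, so the calls there add no support to the levels. Both calls were lost when a UMI in 25% of cells was required. In Th its level was 1.93, 1.78, 3.36, 4.15 and 4.51 CPM (3.15 ± 1.25), a log2 difference of 2.29 ± 0.33 (adjusted p = 4.0e-05, edgeR). In NP_Mrgprd it was 1.45, 1.49, 1.74, 1.05 and 1.09 CPM (1.37 ± 0.290), 1.58 ± 0.28 above other cells (adjusted p = 0.0002, edgeR). The libraries of Th were all above those of NP_Mrgprd, and the pair was not tested because the gene failed the filter of that fit. A UMI was present in 33 of 232 Th cells and 96 of 900 NP_Mrgprd cells. PEP3_Trpm8 had 0 Trpc5 UMIs in 168 cells, which allows up to 1.79% of cells with a UMI, and PEP1_S100a11.Tagln2, PEP1_Slc7a3.Sstr2, PEP2_Htr3a.Sema5a, NF_Pvalb and endothelial cells were also at 0. The remaining types were at 0.843 CPM or less.

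Trpm2 separated the non-peptidergic types from each other. In NP_Nts, neurons known for natriuretic peptide B and somatostatin, its level was 140.3, 125, 108, 123 and 126 CPM (124 ± 11.4), a log2 difference of 4.11 ± 0.12 from all other cells (adjusted p = 8.7e-12, edgeR). A UMI was present in 375 of 400 cells (93.8%), and at 10000 UMIs per cell the expected share was 64.0%. The other non-peptidergic types were among the lowest: NP_Mrgpra3 stood at 3.19 CPM (log2 difference -1.93) and NP_Mrgprd at 0.382 CPM (-5.62), with a UMI in 40 of 900 cells (4.44%), and NP_Mrgprd was below NP_Mrgpra3 by 2.99 on the log2 scale (adjusted p = 3.4e-08, edgeR).

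Between these ends Trpm2 fell slowly over neurons of unlike kinds. PEP1_Dcn followed NP_Nts at 20.8 ± 10.6 CPM (10.3 to 32.4), lower by 2.51 ± 0.22 (adjusted p = 5.7e-16, edgeR), with no overlap of libraries. NF_Pvalb stood at 19.2 ± 2.73, PEP3_Trpm8 at 17.1 ± 6.72, NF_Calb1 at 16.8 ± 1.02, and PEP1_Slc7a3.Sstr2, PEP2_Htr3a.Sema5a, PEP1_S100a11.Tagln2 and NF2_Ntrk2.Necab2 at 14.3, 14, 12.7 and 9.74 CPM. No neighbours within this series differed. The ends of the series did differ, with NF2_Ntrk2.Necab2 below PEP1_Dcn by 1.29 on the log2 scale (adjusted p = 0.00052, edgeR). Of the 9 pairs of a neurofilament and a PEP1 type this was the 1 that passed, where 36.7% to 55.0% of all genes passed in these pairs. The neurofilament types thus carried Trpm2 while they were near 0 for Trpv1, Trpa1 and Trpm3. Th (1.22 CPM, -3.52) and satellite glia (0.455 CPM, -4.56) were called lower, and endothelial cells had 0 UMIs, at least 5.65-fold lower than other cells.

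Trpv2 was at 21.3 CPM or more in each of the 12 neuronal types, and 77.4% of all cells had a UMI. It was highest in PEP3_Trpm8 (114, 85.1, 133, 101 and 85.3 CPM, 104 ± 20.2) and NP_Mrgprd (75.6, 68.3, 90.2, 71.7 and 69.7 CPM, 75.1 ± 8.86), which overlapped and were not separated (0.27, adjusted p = 0.19, edgeR). In NP_Mrgprd it was 1.19 ± 0.10 above other cells on the log2 scale (adjusted p = 1.6e-07, edgeR). In PEP3_Trpm8 it was 1.05 ± 0.12 above (adjusted p = 6.7e-06, edgeR), close to the 2-fold limit, and the difference was 0.93 to 1.00 and so not called under 6 of the alternatives. NP_Mrgprd was above NP_Nts (56.7 ± 5.20 CPM) by 0.53 ± 0.17 (adjusted p = 0.0069, edgeR). From there to NF_Pvalb and PEP2_Htr3a.Sema5a (22.7 ± 6.58 and 21.3 ± 6.59 CPM) the levels fell in small steps, none of which passed the limit, although PEP2_Htr3a.Sema5a (-1.38) and NF_Pvalb (-1.33) were called lower against all other cells. The step from PEP1_Dcn (34.0 ± 7.17 CPM) to NF_Pvalb passed with the library as a block (adjusted p = 0.0048) and not without it (0.011). The sharp edge lay between neurons and the rest: endothelial cells had 1 UMI, and satellite glia stood at 0.772 CPM (log2 difference -5.44). At 10000 UMIs per cell the expected share with a UMI was 62.3% in PEP3_Trpm8, 50.5% in NP_Mrgprd and 0.894% in satellite glia.

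Trpc6 followed the non-peptidergic group. Its level was 27.0, 26.4, 35.1, 23.3 and 23.6 CPM in NP_Mrgprd (27.1 ± 4.77), 21.5, 15.5, 17.6, 14.3 and 19.9 in NP_Mrgpra3 (17.8 ± 2.98), and 16.1, 8.07, 13.7, 11.2 and 10.4 in NP_Nts (11.9 ± 3.08). Every other type was at 1.42 CPM or less. Only NP_Mrgprd was called higher against all other cells (3.26 ± 0.18, adjusted p = 2.3e-09, edgeR), and 11 types were called lower. For every type but NP_Mrgprd, the other cells included NP_Mrgprd, which held 83.5% of all Trpc6 UMIs. NP_Nts stood above PEP1_Dcn, the next type, by 2.74 ± 0.37 (adjusted p = 4.4e-09, edgeR).

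Within the group NP_Mrgprd was above NP_Nts by 1.38 (adjusted p = 1.0e-07, edgeR). The steps from NP_Mrgprd to NP_Mrgpra3 (0.66 ± 0.22, adjusted p = 0.015) and from NP_Mrgpra3 to NP_Nts (0.71, adjusted p = 0.016) did not pass in edgeR's fit, and both passed with the library as a block (adjusted p = 0.0057 and 0.0053). A UMI was present in 773 of 900 NP_Mrgprd cells (85.9%), 79 of 104 NP_Mrgpra3 cells (76.0%) and 167 of 400 NP_Nts cells (41.8%), and at 10000 UMIs per cell the expected shares were 23.7%, 16.8% and 11.7%. None of 342 PEP1_Slc7a3.Sstr2 cells had a Trpc6 UMI, which allows up to 0.877% of cells and puts the level at least 58.7-fold below that of other cells.

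Trpc1 was near the limit of detection everywhere. Its highest mean was 1.22 ± 1.26 CPM in NP_Nts, where library 1 was at 0, and a UMI was found in 4.24% of all cells. The gene could be tested only in NP_Mrgprd, where it stood at 0.679 ± 0.328 CPM (log2 difference 0.02, adjusted p = 0.95, edgeR). No order of types can be read from these levels.

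**Figure D5:**
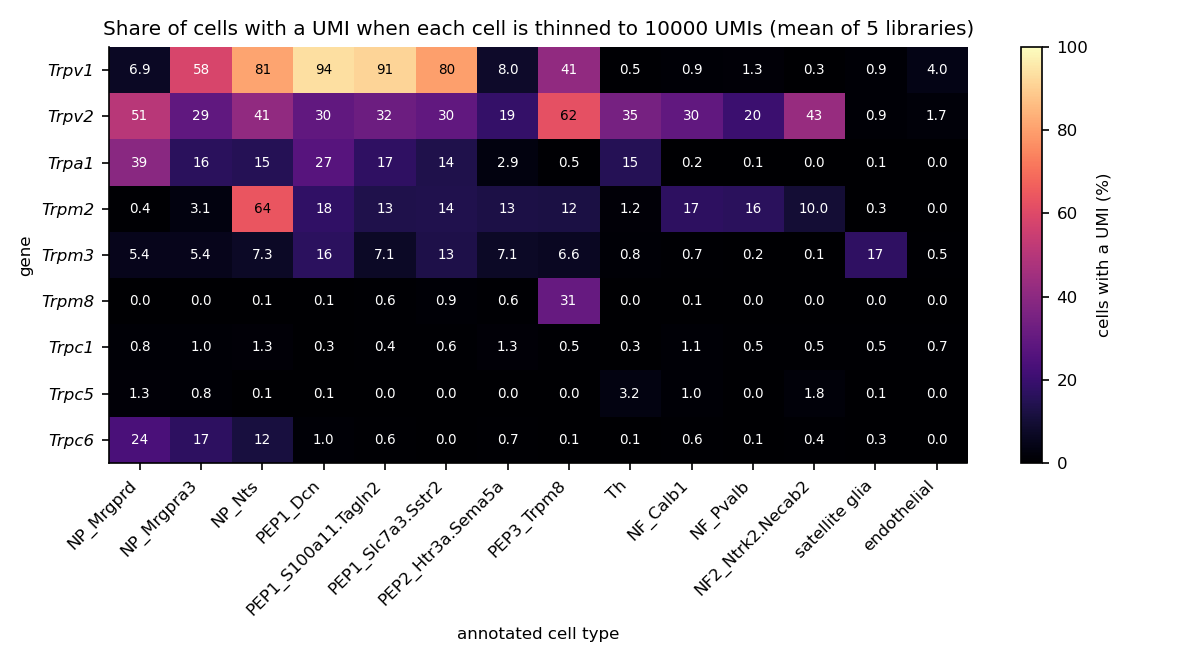
Expected share of cells (percent, coloured and written in each field) with a UMI of each gene (rows) in each type (columns) after thinning every cell to 10000 UMIs, as the mean of 5 libraries. Trpv1 reached 93.5% in PEP1_Dcn, Trpm2 64.0% in NP_Nts, Trpv2 62.3% in PEP3_Trpm8 and Trpa1 39.2% in NP_Mrgprd, while Trpm3 had its highest share, 17.4%, in satellite glia.

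Of 19 other TRP family genes listed, 12 were rows of the matrix. Over their 100 tests 14 were higher (14%) and 31 lower (31.0%), where 9.32% and 16.4% of all tests were. Here too a sparse gene passes the filter mainly where it is high, so the share of higher calls supports nothing further. Trpm6, a magnesium channel, was higher in NP_Nts (5.98, 25.9 ± 7.76 CPM), where Trpm2 was also highest. Trpv4, which opens to osmotic swelling and warmth, was higher in Th (5.16, 6.54 ± 1.86 CPM), while endothelial cells, where it was not tested, had the highest mean (12 ± 10.9 CPM, from 8 UMIs). Trpc4, the closest relative of Trpc5, was higher in PEP1_Dcn (2.42), PEP3_Trpm8 (1.56) and Th (1.53), and Trpc7 was higher in PEP1_Slc7a3.Sstr2 (3.47), PEP2_Htr3a.Sema5a (2.48) and PEP1_Dcn (2.23). Trpc7 passed the filter in 4 types and Trpv4 in 2, so the higher calls of these sparse genes add no support to the levels. Trpm4, a calcium-activated channel, was higher in NP_Mrgpra3 (1.12) and NP_Mrgprd (1.10). Pkd2, of the polycystin branch, was higher in satellite glia (4.17, 23.6 ± 10.9 CPM) and endothelial cells (2.25). Trpm7, a channel with a kinase domain, had no call in any of 14 types, at 12.6 to 22.0 CPM.

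Of 14 genes known to regulate or couple to TRP channels, all were rows of the matrix, and over 141 tests 21 were higher (14.9%) and 50 lower (35.5%), against the same 9.32% and 16.4%. The filter on low counts limits this share of higher calls in the same way. Tmem100, an adaptor between Trpa1 and Trpv1, was higher in the 3 PEP1 types (2.23 to 2.43), in NP_Mrgpra3 (1.89) and in PEP2_Htr3a.Sema5a (1.04), and lower in 7 types. The latter included PEP3_Trpm8 (-4.06, 4.16 CPM), with high Trpv1 and nearly no Trpa1, and NP_Mrgprd (-4.39, 5.80 CPM), with Trpa1 in most cells. F2rl1, the protease-activated receptor that sensitises several TRP channels, stood at 7.97 ± 4.51 CPM in NP_Nts (8.15). This was the 1 type in which it passed the filter, so the call there adds no support to the level. Plcb3 was higher in NP_Mrgprd (1.43) and NP_Nts (1.06) and lower in PEP3_Trpm8 (-3.37), and Prkce was lower in PEP3_Trpm8 (-1.75). Oprm1 was higher in NP_Nts (1.88), PEP3_Trpm8 (1.53), PEP1_Slc7a3.Sstr2 (1.46) and PEP2_Htr3a.Sema5a (1.29). Ano1, a calcium-activated chloride channel that couples to Trpv1, was higher in NF_Pvalb (5.98) and NF_Calb1 (2.36), which had almost no Trpv1, and lower in 11 types. Pirt, a membrane protein that binds Trpv1 and Trpm8, had no higher call and was lower in the 3 neurofilament types, satellite glia and endothelial cells. Gabbr2 was higher in NF_Pvalb (1.39), a call lost with the library as a block (adjusted p = 0.0105), and Mcoln2 of the other TRP genes gained a higher call in Th with it (1.42, adjusted p = 0.0055). Gabbr2 passed the filter in 3 types and Mcoln2 in 2, so these calls add no support either.

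For each gene the 3 genes most like it were taken, by Pearson's r of log2(CPM + 1) over the 70 sums among genes with at least 500 UMIs. The points share libraries and types, so r is a description. Trpv1 was most like Gfra3 (0.946), then Msantd1 (0.864) and Smpd5 (0.860), and Trpv2 most like Acot7 (0.926), Prph (0.919) and Ywhah (0.918). Trpm8 was most like Penk (0.857), Foxp2 (0.834) and Abi3bp (0.757), and Trpc6 most like Sh2d4a (0.909) and A3galt2 (0.893). For Trpa1 the highest values were Zdhhc12 (0.852) and Mal2 (0.849), for Trpm2 Ankrd45 (0.838) and Ptprn (0.824), for Trpm3 Fuz (0.821) and Glipr2 (0.796), and for Trpc5 Grhl3 (0.741) and Gadl1 (0.730). Trpc1 had no gene above 0.462 (Fam118b). Among the 9 genes themselves the most alike pairs were Trpv1 with Trpm3 (0.617) and Trpv1 with Trpa1 (0.611).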

How the data were processed

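Lumbar DRG cells of 5 mice were run on a droplet 3′ kit. The authors aligned to mm10 and counted with Cell Ranger, filtered and typed cells with Seurat, and deposited raw UMI counts per gene and cell with a table of cell types. Counts were summed here by type and library, and tested with edgeR 4.0.16 (R 4.3.3; filterByExpr, TMM, quasi-likelihood), with DESeq2 1.42.0 as alternative. Other values were computed with Python 3.11.15, pandas 2.3.3 and scipy 1.17.1. Libraries were told apart by cell names, could not be tied to sample labels, and were each taken as 1 mouse. Rows naming no mouse gene (4, 6.3682e-05% of UMIs) were left out. Columns of other samples numbered 0. Doublets were not called here. Thinned shares are exact expectations at 10000 UMIs, and no cell was shallower. Intervals and floors (3 UMIs) cover counting error only. The 9 genes, both gene lists and the rule for like genes (at least 500 UMIs, 3 per gene) were chosen with earlier results of these data known. A type and the other cells of a library come from the same mouse, so library numbers pair the sums. Correlations of their deviations ran from -0.0425 to 0.370. The fits were tested on simulated data, where recovery of changed genes was lowest in endothelial cells, so a lack of calls there says little. Some genes of the lists entered the counts but are not reported singly here.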

Additional observations from a re-analysis of the deposited data

Results flagged for a closer look

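Of 63 levels of a gene in a type with a mean of at least 1 CPM, 8 had 1 library far from the other 4 by Dixon's criterion (gap over range above 0.71). Normally distributed values would give about 1 in 20. A level with UMIs in 1 library only always exceeds the limit, as both endothelial levels below do, so these shares are not alike in kind. For Trpv1 in neurons, library 3 of NP_Mrgpra3 stood at 135 CPM with the next at 99.2, and library 2 of PEP3_Trpm8 at 653 CPM with the next at 272. In non-neuronal cells, Trpv1 stood at 6.93 CPM in satellite glia of library 3, from 10 UMIs in 3 of 80 cells, and at 27.7 CPM in endothelial cells of library 5, from 3 UMIs in 2 of 7 cells. Trpv2 stood at 57.8 CPM in PEP1_S100a11.Tagln2 of library 3, with the next at 35.6, and at 9.24 CPM in endothelial cells of library 5, which is 1 UMI. In NP_Mrgpra3 library 1, with 4 cells, Trpa1 stood at 43.1 CPM (next 17.6) and Trpm3 at 9.79 CPM (next 3.77).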

How the results depend on the processing

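The 57 called differences of a gene between a type and all other cells, Trpm8 in PEP3_Trpm8 among them, were recomputed under 740 alternatives in all. These were DESeq2, no filter on low counts, the library as a block, other limits for a call, other sets of cells, and leaving out a library. None reversed, and 732 kept their direction and call. The 8 others lost the call: Trpv2 in PEP3_Trpm8 under 6, and Trpc5 in NP_Mrgprd and in Th when a UMI in 25% of cells was required. With the library as a replicate block the set again had 17 higher and 40 lower calls, and no call of these genes changed. Neighbours that differed numbered 13, and 7 to 13 with a library left out (8 without library 4, 7 without library 5), 16 with the replicate block, 11 in DESeq2 and 15 without the filter. Thinned shares depend on the depth chosen: at 5000 and 20000 UMIs they were 39.9% and 84.4% for Trpv2 in PEP3_Trpm8, 43.6% and 80.2% for Trpm2 in NP_Nts, 9.21% and 29.9% for Trpm3 in satellite glia, 1.63% and 5.78% for Trpc5 in Th, and 13.1% and 40.1% for Trpc6 in NP_Mrgprd. Trpv1 in PEP1_Dcn was at 83.6% at 5000, and Trpm8 in PEP3_Trpm8 at 47.3% at 20000. Cells under the chosen depth are left out, so the glial value at 20000, over 4 libraries, describes the deeper glia (median 17729). Depth limits Trpc1, Trpc5 and Trpm8 outside PEP3_Trpm8, which rest on few molecules.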
